A study of Mus musculus with 3 samples.

Results

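In the livers examined here, 611 places in the genome were strongly occupied by the estrogen-related receptor ERRα while the mTOR signal at the same spot stayed close to that of a control antibody. They were chosen from coverage averaged over 200-bp bins on chromosomes 1 to 19, with positions without coverage counted as 0. The fold of a ChIP is its coverage plus 0.2 divided by the IgG coverage plus 0.2. Bins with ERRα coverage above 2.0 and a fold of at least 3 were merged where adjacent, which gave 21679 ERRα regions, and each region was read in its bin of highest ERRα coverage. Of these, 1592 reached an ERRα fold of 10 or more, called strong here, and in 611 of the strong regions the mTOR fold in that bin was below 1.5. ERRα, mTOR and IgG coverage in the highest bin therefore chose the regions, and those values are descriptions, with no test.

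Chromatin was immunoprecipitated from the livers of C57Bl/6 male mice aged 2 to 3 months and sequenced as single reads of 50 bp. The 3 groups had 1 library each: ChIP against mTOR, ChIP against ERRα, and rabbit immunoglobulin G (IgG) as the control. For mTOR and for ERRα, DNA from 8 immunoprecipitations on chromatin of 26 livers had been combined; how the IgG DNA was pooled is not given in the sources. The labels give no drug treatment or altered gene for any of them. With 1 library a group no difference has a replicate check, classes of regions were compared without a test, and all intervals cover counting error only. The track headers gave 62500000 tags for mTOR, 74200000 for ERRα and 68800000 for IgG, and the authors scaled coverage to 10000000 tags. Whole liver is mostly hepatocytes but holds other cells too, and occupancy in few cells cannot be told apart from weak occupancy in many. Positions are those of the mouse build mm9, 1-based; genes and sequences are not given, because no genome or annotation of that build was used here.

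ERRα is an orphan nuclear receptor, with no natural ligand established, that binds DNA at an extended form of the nuclear receptor element. It acts with the coactivators PGC-1α and PGC-1β and is known for driving genes of mitochondrial respiration, fatty acid oxidation and the tricarboxylic acid cycle, which the liver uses heavily in fasting. mTOR is the kinase subunit of the complexes mTORC1 and mTORC2, which sense nutrients and growth factors. It is not a classical transcription factor, and its ChIP signal at a site is generally taken as contact through other proteins. Both proteins control liver lipid metabolism, and the title of the series places them in a study of fatty liver caused by rapamycin, an inhibitor of mTOR.

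The ERRα peaks of these regions were tall, which the limit on the ERRα fold largely set. Median ERRα coverage in the highest bin was 11.3 units, with quartiles of 8.61 and 14.6 and a range of 3.09 to 56.9. In the same bins the mTOR ChIP had a median of 0.788 (quartiles 0.6 and 1.03) and IgG a median of 0.660 (0.5 and 0.835). The lowest ERRα value was 3.09 and the highest mTOR value 2.12, a separation that largely follows from the choice of regions. As folds over IgG, the median was 12.7 for ERRα and 1.18 for mTOR, and mTOR was below IgG, with a fold under 1, in 133 of the 611 (21.8%, beside 24.2% of all called ERRα regions). Set directly against each other with the same pseudocount, ERRα exceeded mTOR by a median of 11.2 times (quartiles 9.52 and 14.2). The exact 95% interval of that ratio, taken without the pseudocount, had its lower bound above 3 in all 611 regions. These shares were fixed by the choice of regions; as background, 0.346% of the 200-bp bins with coverage were called for ERRα, 7.34% of the called ERRα regions were strong, and 88.8% of bins with coverage had a mTOR fold below 1.5.

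**Figure D1:**
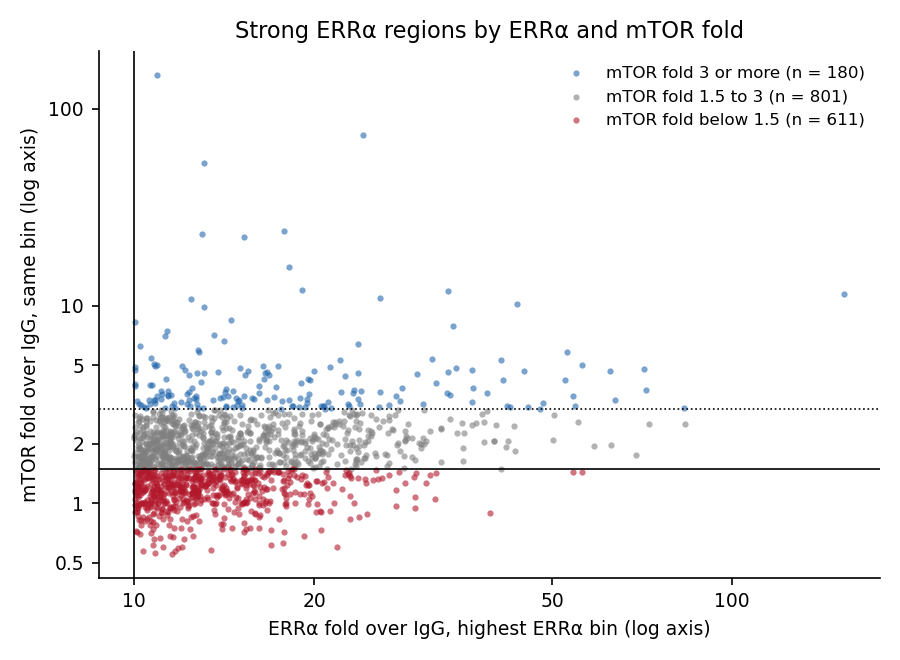
Each point is 1 of 1592 strong ERRα regions, placed by its ERRα fold over IgG (horizontal, log axis) and its mTOR fold over IgG (vertical, log axis) in the highest ERRα bin; lines mark 10, 1.5 and 3. The 611 red points below 1.5 lie mostly at ERRα folds near 10 to 20, and 7 lie at 30 or more.

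The region with the largest ERRα fold was chr14:105697401-105698800. ERRα coverage there was 34.2, mTOR coverage 0.680 and IgG coverage 0.412, which put ERRα at 56.2-fold (exact 95% interval of the ratio without pseudocount 30.5 to 291) and mTOR at 1.44-fold (0.392 to 7.96). The second was chr5:64687801-64688800, with 49.1 for ERRα, 1.11 for mTOR and 0.710 for IgG, and another ERRα region began 0.2 kb away. The third, chr10:42182401-42183600, had the highest ERRα level of all 611, 56.9, while mTOR stood at 1.10 and IgG at 1.25. Here mTOR was below IgG, at 0.892-fold with an interval of 0.307 to 2.14, and ERRα exceeded mTOR 44.1 times (27.7 to 116). This peak was also broad, at 635 bp at 50% of its maximum against a median of 364 bp over the 611.

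ERRα coverage was 34.7 at chr2:156689201-156690200, where mTOR was 1.35 and IgG 0.892. At chr13:59240001-59241600 the values were 44.1, 1.26 and 1.19 for ERRα, mTOR and IgG. At chr9:92170401-92171400 they were 26.0, 0.964 and 0.638. In these 3 regions ERRα was 22.5, 30.4 and 22.6 times mTOR, and the mTOR folds were 1.42, 1.05 and 1.39. ERRα, mTOR and IgG stood at 29.9, 1.05 and 0.780 at chr18:81991401-81993000. They stood at 21.2, 0.828 and 0.522 at chr5:33921201-33921800, and at 23.4, 0.660 and 0.6 at chr9:28354001-28354800. The last of the 10 largest, chr17:10693601-10694000, was weaker in every library, with 14.5 for ERRα, 0.276 for mTOR and 0.3 for IgG, or 2.31 mTOR tags against 2.76 IgG tags. The region chr15:25832801-25833800 was not among the 10 largest folds but had the fourth highest ERRα level, at 36.6 against 1.44 for mTOR and 1.60 for IgG.

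**Figure D2:**
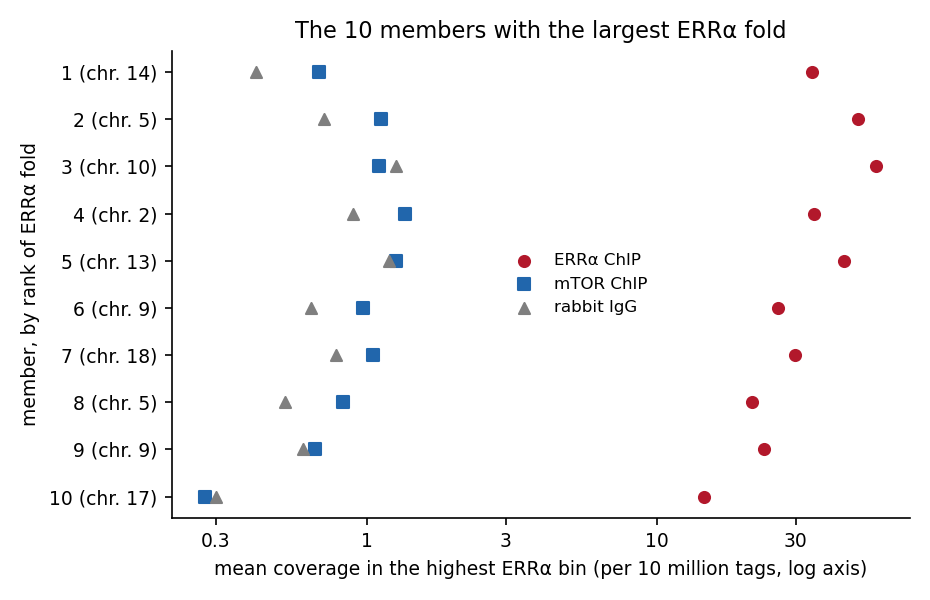
Mean coverage in the highest ERRα bin (log axis, per 10000000 tags) of the 10 regions with the largest ERRα fold, with a symbol for each of the 3 libraries. ERRα values run from 14.5 to 56.9, while mTOR and IgG lie close together between 0.276 and 1.35.

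The deepest shortfalls of mTOR rested on few tags. At chr1:87905601-87906400, the region with the lowest mTOR fold of 0.555, ERRα coverage was 12.3, mTOR 0.4 and IgG 0.882, equal to 3.35 and 8.09 tags, and the interval of mTOR over IgG was 0.0705 to 1.72. At chr9:96816401-96817200 mTOR was 0.699 and IgG 1.395, a 0.563-fold level with an interval of 0.158 to 1.43; this was the only 1 of the 611 whose upper bound was below 1.5. The next 3 regions by this order, chr12:79561801-79562400, chr9:99105801-99106400 and chr19:38480201-38480800, had mTOR folds of 0.571, 0.571 and 0.578 and mTOR coverage of 0.2, 0.2 and 0.4. No region had an interval of mTOR over IgG that lay wholly below 1, beside 8 of all 21679 called ERRα regions (0.0369%). A mTOR level under the control was thus not detected at any of the 611.

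Few tags also limit the detection of an excess. In the highest bin the median region held 112 ERRα tags but 6.60 mTOR tags and 6.06 IgG tags. The interval of mTOR over IgG included 1 in all 611 regions, which the mTOR limit of the choice largely fixed, and in 94.0% of all called ERRα regions. Its median bounds in the 611 were 0.330 and 4.34. The upper bound was below 3 in 82 of them (13.4%, beside 14.9% of all called ERRα regions) and below 2 in 10 (1.64%, beside 2.62%). For most single regions, then, a mTOR excess of 3 times IgG could not be told apart from none at this depth.

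Coverage summed over many regions is less subject to this limit. Over the 611 regions mean mTOR coverage was 0.829 in the highest bin, 0.844 in the bins 200 bp away, 0.780 at 400 bp, 0.7497 at 600 to 1000 bp and 0.728 at 2200 to 5000 bp. Mean IgG coverage at the same distances was 0.696, 0.683, 0.657, 0.660 and 0.652. The ratio of the 2 means was thus 1.19 at the ERRα maximum, which the choice of regions held down, 1.24 at 200 bp, which it held down less directly, and 1.12 in the outer bins. Mean ERRα coverage fell from 12.4 in the highest bin to 2.40 at 400 bp, 1.18 at 600 to 1000 bp and 0.833 at 2200 to 5000 bp. A small rise of mTOR above its surroundings remained in these averages, and IgG rose there too. ERRα stayed at 1.28 times IgG even at 2200 to 5000 bp. The other strong ERRα regions were alike there, at 1.28 for a mTOR fold of 1.5 to below 3 and 1.31 for 3 or more.

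**Figure D3:**
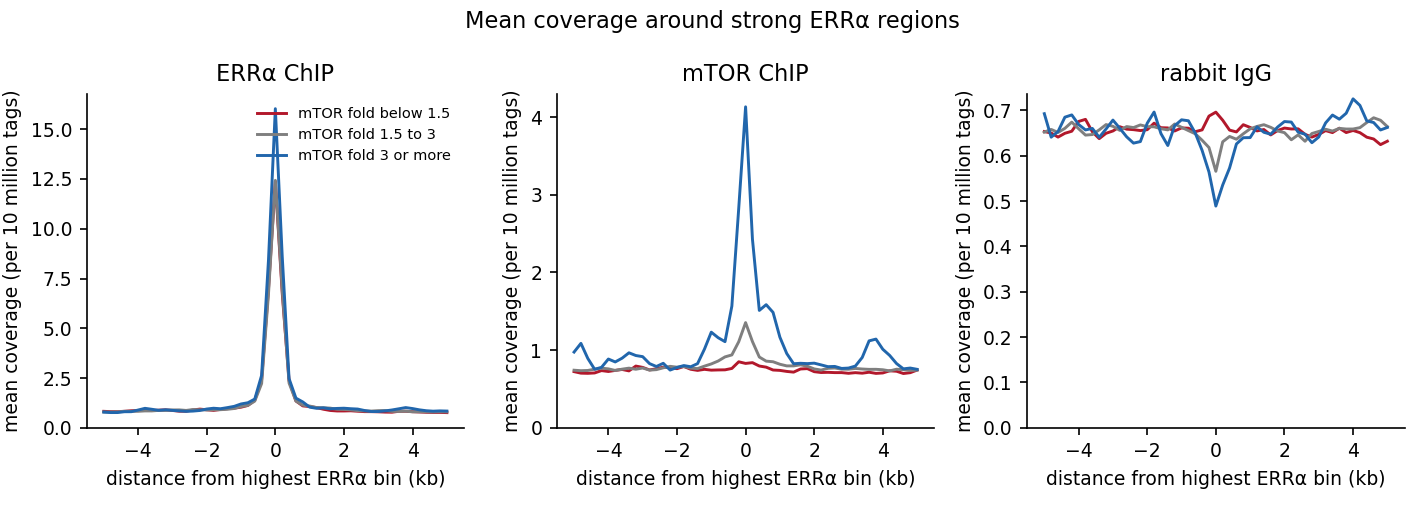
Mean coverage per 10000000 tags (vertical) in 200-bp bins by distance from the highest ERRα bin (horizontal, kb) in the 3 libraries, for 611, 801 and 180 strong ERRα regions by mTOR fold. In the regions with mTOR fold below 1.5 (red) mTOR is nearly flat, at 0.829 in the centre against 0.728 in the outer bins, and IgG has a slight rise where the other classes have a dip.

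The other strong ERRα regions were 801 with a mTOR fold of 1.5 to below 3 and 180 with 3 or more. ERRα itself was much alike in the 3 classes, in order of rising mTOR fold: median coverage was 11.3, 10.1 and 10.4, and at 50% of the maximum the peaks were 364, 365 and 344 bp wide in the median. The called width had a median of 800, 600 and 800 bp, in steps of 200 bp, beside 400 bp over all called ERRα regions. A second ERRα summit of at least 50% of the highest, behind a dip of at least 25%, was seen in 19 of the 611 (3.11%), 21 of the 801 (2.62%) and 12 of the 180 (6.67%). A single bin was the whole width of 2 of the 611, 4 of the 801 and 4 of the 180 regions, against 10171 of all 21679 ERRα regions. Peaks narrower than 200 bp at 50% of the maximum, near the 150 bp that a tag covers, numbered 4 of the 611. At the wide end stood chr6:125113801-125116000 and chr9:34917401-34919600, each spanning 2200 bp, and chr19:47224001-47226000 with 2000 bp. Their ERRα coverage was 9.41, 18.9 and 20.6, and mTOR coverage was 0.813, 1.63 and 0.906.

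mTOR was also set against its own flanks, the bins 2 to 5 kb away on both sides, with no IgG in the ratio. In the 611 regions the median of highest bin over flanks was 1.09 for mTOR (quartiles 0.817 and 1.48), 1.03 for IgG (0.767 and 1.33) and 14.5 for ERRα (10.8 and 19.9). In the classes of 801 and 180 the mTOR medians were 1.73 and 3.00, and the ERRα medians 12.9 and 13.2. mTOR was at least 1.5 times its flanks in 145 of the 611 regions (23.7%, exact 95% interval 20.4 to 27.3), beside 33.5% of all called ERRα regions and 16.7% of all bins with coverage. It was at least 2 times its flanks in 46 and at least 3 times in 2 regions, chr14:61436801-61437400 and chr9:120245601-120246400, singled out after their values were seen. In those 2 regions mTOR was 3.598 and 3.015 times its flanks, and IgG was 2.22 and 2.04 times its own. Over all called ERRα regions the shares at 2 and 3 times were 14.6% and 3.43%, against 7.53% and 0.327% here. mTOR was below its flanks in 249 of the 611 (40.8%), beside 32.2% of all called ERRα regions. The mTOR limit of the choice acts on the same bin, so it lowers the shares above the flanks and raises the share below them.

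IgG moved with the classes. Its median in the highest bin was 0.660 where the mTOR fold was below 1.5, 0.526 where it was 1.5 to below 3, and 0.473 where it was 3 or more, although in the flanks it was 0.653, 0.657 and 0.661. Against flanks, IgG stood at 1.03, 0.825 and 0.683. IgG is the divisor of both folds, so a higher IgG value lowers both, and its part in the split between the classes was not tested. The share of strong regions with a mTOR fold below 1.5 was 15.9% where IgG was below 0.3 and 62.9% where it was 0.9 or more. Both tracks were also coarse at this level: at the ERRα maximum the deposited interval spanned a median of 217 bp in the mTOR track and 263 bp in the IgG track, against 23 bp in the ERRα track.

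**Figure D4:**
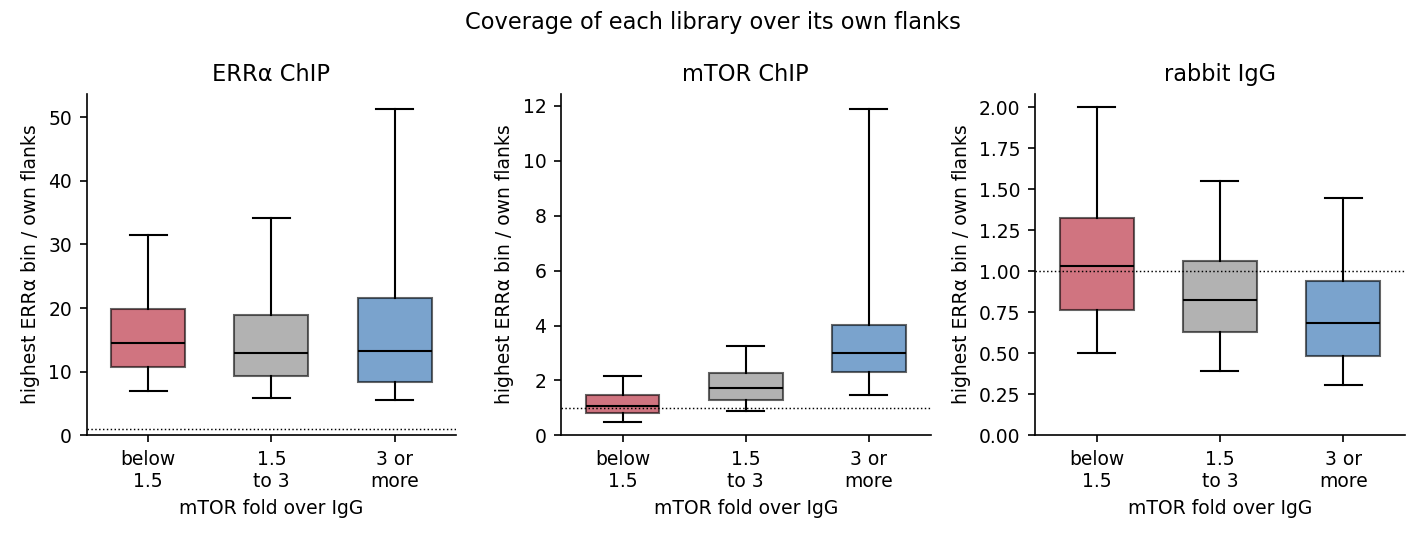
Highest ERRα bin over the mean of its own flanks (2 to 5 kb) for each library, by class of mTOR fold (611, 801 and 180 regions); boxes are quartiles with the median, whiskers the 5th and 95th percentiles, and the dotted line is 1. The mTOR medians rise from 1.09 to 3.00 across the classes while the IgG medians fall from 1.03 to 0.683.

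Regions without mTOR excess became rarer as the ERRα fold rose. They made up 43.7% of the 565 strong regions at 10-fold to below 12-fold (exact 95% interval 39.6 to 47.9), 42.5% of 438 up to 15-fold, 39.6% of 321 up to 20-fold, 23.2% of 190 up to 30-fold and 8.97% of 78 at 30-fold or more (3.69 to 17.6). Of the 100 strong regions with the largest ERRα fold 13 were among the 611. Over all strong regions in these bands the median of mTOR over its flanks was 1.403, 1.405, 1.54, 1.83 and 2.79. Fold and class share the IgG divisor, so the shares are a description only. The flank medians have no IgG in the ratio and cover all strong regions, which were chosen without a mTOR limit. Median mTOR coverage in the same bands was 1.03, 1.06, 1.12, 1.30 and 1.99, and median IgG coverage 0.586, 0.567, 0.587, 0.563 and 0.6. The rise of mTOR with the ERRα fold rests on 1 library a group, and its cause was not tested. By ERRα level instead of fold the share went up and then down, from 28.9% below 8 units to 50.7% at 12 to below 16 and 23.8% at 24 or more. A fold of 10 or more limits how high IgG can be for a given ERRα level, so weak ERRα regions could enter only with low IgG.

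Within the 611, mTOR and IgG rose together with the ERRα level. In the 116 regions with ERRα below 8 units the median over flanks was 0.754 for mTOR and 0.680 for IgG, and in the 25 regions at 24 or more it was 1.78 and 1.70. In the bands between, from 8 to below 12, to below 16 and to below 24, mTOR stood at 1.01, 1.30 and 1.41 and IgG at 0.978, 1.22 and 1.30. The choice keeps the mTOR fold over IgG below 1.5 in this bin and lets IgG rise only with ERRα, so the closeness of mTOR and IgG and their rise with ERRα follow from it in part and are no finding. The regions with the most IgG tags were chr1:184179601-184180200, chr9:34917401-34919600 and chr15:25832801-25833800, and IgG there was 2.43, 2.00 and 2.12 times its flanks.

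**Figure D5:**
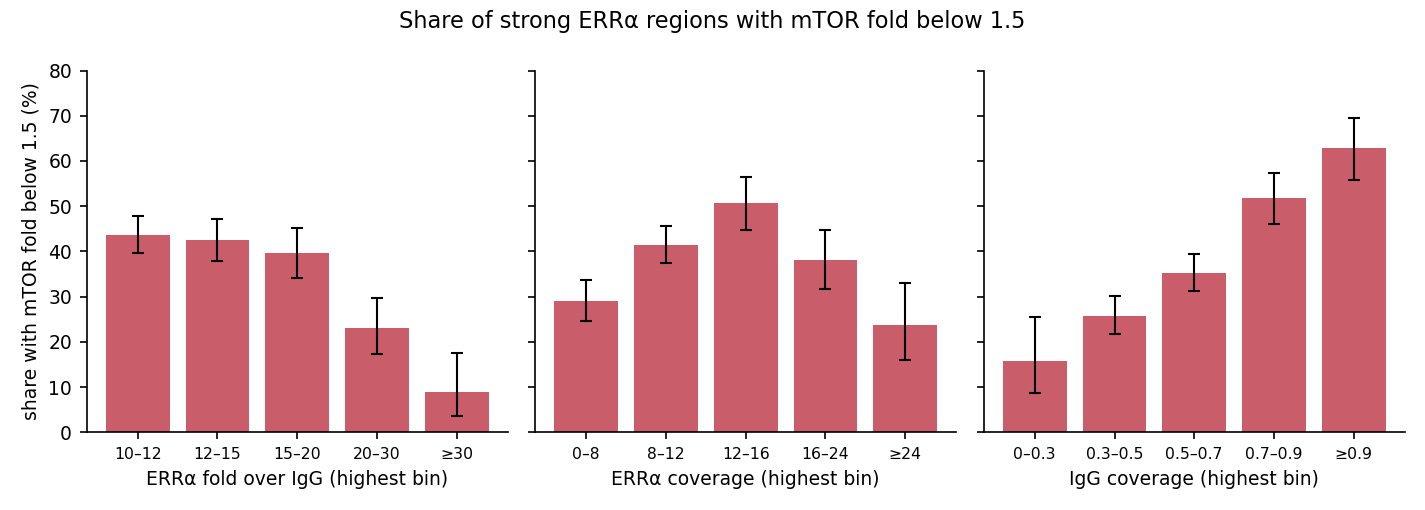
Share of strong ERRα regions with mTOR fold below 1.5 (vertical, percent) by ERRα fold, ERRα coverage and IgG coverage in the highest bin; error bars are exact binomial 95% intervals. The share falls from 43.7% to 8.97% with ERRα fold and climbs from 15.9% to 62.9% with IgG coverage.

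In a few of the 611 regions mTOR was raised beside the ERRα maximum. The mTOR fold was 3 or more in some bin of 10 regions (1.64%, beside 3.91% of all called ERRα regions), was 2 or more in 106 (17.4%, beside 18.9%) and stayed below 1.5 in every bin of 312 (51.1%, beside 55.2%). The last 2 shares lay near those of all ERRα regions, which were mostly narrower. The mTOR limit of the choice acts on the highest ERRα bin, so it lowers the first 2 shares and raises the last. Regions called for mTOR, with coverage above 2.0 and a fold of at least 3, numbered 9053 and took 0.137% of the bins with coverage. They overlapped or directly abutted 5 of the 611 (0.818%), beside 3.04% of all ERRα regions. The choice bars a mTOR call in the highest ERRα bin, so the lower share is largely fixed by it. The 5 regions are named here after their values were seen. At chr17:29576001-29577200 the ERRα maximum had 30.8 for ERRα, 1.12 for mTOR and 0.931 for IgG, while 400 bp before it mTOR was 2.10 against 0.2 in IgG, a 5.75-fold level, and ERRα had fallen to 3.49. At chr13:64445401-64446200 and chr5:91310401-91311200 the adjacent bin, 200 bp from the maximum, held mTOR coverage of 2.45 and 2.42 at 3.21-fold and 3.28-fold. In both, ERRα in that bin was nearly as high as at the maximum, at 16.4 against 17.6 and 14.1 against 15. The other 2 were chr6:95461401-95462200 and chr7:88115601-88116400, where the highest mTOR fold inside the region was 3.21 and 2.34.

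The median distance from the 611 to the nearest called mTOR region was 39 kb (quartiles 13.5 and 120), close to the 42 kb over all called ERRα regions. It was 130.4 kb when mTOR regions needed a fold of 5. For the 801 regions it was 29.8 kb and for the 180 it was 0 at the fold of 3; the classes were split by the mTOR fold that also decides mTOR calls, so their order is largely fixed by the choice. A mTOR region lay within 10 kb of 115 of the 611 (18.8%), of 232 of the 801 (29.0%) and of 148 of the 180 (82.2%), beside 21.5% of all called ERRα regions. Other ERRα regions were nearer: the median distance to the next was 11.6 kb for the 611, 9.60 kb for the 801, 6.60 kb for the 180 and 13.8 kb over all ERRα regions. Another ERRα region lay within 1 kb of 62 of the 611 (10.15%), the same as the 10.07% of all ERRα regions to within counting error. Another of the 611 lay within 10 kb of 15 of them (2.5%), near the 2.1% of all called ERRα regions. The median distance to the nearest other of the 611 was 691 kb, beside 776 kb over all called ERRα regions.

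The 611 regions were spread over all 19 chromosomes. Chromosomes 11 and 9 held 58 and 57, or 0.495 and 0.480 regions per covered Mb, while chromosome 14 had 12, or 0.104 per covered Mb, with a median of 0.262. Called ERRα regions per Mb numbered 15.1 on chromosome 11, 11.35 on chromosome 9 and 7.12 on chromosome 14. As a share of the strong regions of a chromosome, those without mTOR excess ran from 21.1% on chromosome 14 (12 of 57, exact 95% interval 11.4 to 33.9) to 50.0% on chromosome 18 (23 of 46, 34.9 to 65.1), and the median was 38.6%. Over all chromosomes together the share was 38.4%, beside 65.7% with a mTOR fold below 1.5 among all called ERRα regions.

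The limits of the choice cut through a continuous range of values. Just inside the mTOR limit lay chr19:45104601-45105400, chr2:6017401-6018200 and chr2:5995801-5997000, at mTOR folds of just under 1.5, 1.496 and 1.496 with mTOR coverage of 1.30, 1.15 and 1.68. Just outside it, at exactly 1.5, lay chr9:94298201-94298800, chr15:55020801-55021600 and chr13:37891801-37892600, with mTOR coverage of 0.7, 0.4 and 0.4 against IgG of 0.4, 0.2 and 0.2. At the ERRα limit, chr3:52103601-52104200, chr3:41039601-41040200 and chr15:10132001-10132600 were inside at 10.02-fold each. Outside were chr7:87069801-87070400, chr13:38857801-38858400 and chr16:92302401-92303600 at 9.998, 9.98 and 9.97. The lowest ERRα levels among the 611 were 3.09 at chr2:75478601-75478800, 3.80 at chr2:75699201-75699600 and 4.19 at chr13:9472401-9472800, where IgG was 0.1, 0.1 and 0.2, each from about 1 or 2 tags.

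Which regions belong depended on where the bins fell, though their number did not. With bins shifted by 100 bp there were 613 regions, and 377 of the 611 (61.7%) were among them. At the shifted maximum the mTOR fold of the 610 regions still called had a median of 1.21 (5th to 95th percentile 0.751 to 1.86); it was 1.5 or more in 127 and 3 or more in 1, and the ERRα fold was below 10 in 109. Regions that remained with shifted bins, with IgG averaged over 1 kb and with pseudocounts of 0.1 and 0.4 numbered 194 (31.8%), and 143 of these also met the limits when each ChIP was set against its own flanks in place of IgG. Among the 10 largest, chr10:42182401-42183600, chr9:28354001-28354800 and chr17:10693601-10694000 remained under all 5 of these settings. At chr14:105697401-105698800, in contrast, the shifted bin held 0.880 for mTOR and 0.3 for IgG, which is 2.16-fold. The mTOR fold also passed 1.5 with shifted bins at chr13:59240001-59241600, going from 1.05 to 1.757, at chr2:156689201-156690200, from 1.42 to 1.62, and at chr5:33921201-33921800, from 1.42 to 1.84.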

How the data were processed

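Signal tracks of tag coverage, 1 per library, were deposited; per the file headers the authors scaled them to 10000000 tags. BWA 0.5.9 and MACS 1.4.1 are named in the submitters' processing notes, as is mm9, without saying what each was used for. Which program made the tracks, how tags were extended and whether duplicates were removed is not stated in the sources. A tag added 149 to 150 bp of coverage, judging from the sums. The median deposited interval was 248 to 253 bp on chromosomes 1 to 19, so low coverage is averaged over more than a bin.

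Regions were called as described above. Tags per bin were approximated from coverage, library total and bp per tag, and ratios of libraries were given exact (Clopper-Pearson) 95% intervals. The caller was run on simulated data with tags drawn independently in each bin. The deposited tracks are coarser than that, so the run gives no error rate for these regions. Regions were named by rank: the 10 largest ERRα folds, the 5 highest ERRα levels, the 5 lowest mTOR folds, the 3 widest, the 3 with the most IgG tags and the 3 on each side of each limit. The regions, limits and named lists were chosen with earlier results of these data known. Planned motif searches and distances to gene starts need mm9 sequence and annotation and were not made. Python 3.11.15, NumPy 2.4.6, pandas 2.3.3, SciPy 1.17.1 and Matplotlib 3.10.9 were used.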

Additional observations from a re-analysis of the deposited data

How the results depend on the processing

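An alternative was taken to move a share or median when it left the exact 95% interval, and a count when it changed by over 1.5 times. The number of regions, 611, was 421 to 784 under other pseudocounts, bins, IgG averaging, minimum levels, merging and scaling. It was 133 with the mTOR limit at 1.0, 1029 at 2.0 and 312 when the limit applied to every bin of a region; the shares of strong regions were 8.35%, 64.6% and 19.6% against 38.4%. With own flanks in place of IgG, chosen after seeing the data, there were 962 regions, of which 352 were among the 611. A pseudocount of 0.4 gave a share of 44.5% and a median ERRα level of 13.1, and one of 0.1 a level of 10.2, against 11.3. The median width was 400 bp with a minimum level of 5. Taking the median of the flank bins gave 1.20 for mTOR over flanks and 16.4 for ERRα, and flanks of 1 to 3 kb gave 13.9 for ERRα. The nearest mTOR region was at a median of 130.4 kb when mTOR regions needed 5-fold. The cause of these changes was not tested. No paired analysis was possible because each group has 1 library. Depth limits the mTOR value of a single region more than the ERRα value.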

Other observations

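Chromosome X, which was not used above, held 13 strong ERRα regions among 135 called. The mTOR fold was below 1.5 in 8 of the 13. On chromosomes 1 to 19 this share was 38.4% of strong and 65.7% of all called ERRα regions. With so few regions on X the difference was not tested. The largest ERRα folds of these 8 were at chrX:137613601-137614200, with coverage of 9.99 for ERRα, 0.422 for mTOR and 0.4 for IgG (16.99-fold and 1.04-fold), and at chrX:159078601-159079400, with 5.82, 0.399 and 0.2 (15.04-fold and 1.498-fold). The highest ERRα level was 10.6, at chrX:13038601-13039400, where mTOR was 0.382 and IgG 0.552. In these 8 bins mTOR and IgG coverage was at most 0.422 and 0.552, which the choice of the bins holds down in part. Male mice carry a single X, and its part in these levels was not tested.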
